A study of Mus musculus with 6 samples.

Results

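The S3 segment is the last, straight stretch of the proximal tubule of the kidney. Its nuclei were chosen by measured values, the UMIs (unique molecular identifiers, each marking 1 captured RNA molecule) of a few marker genes in single-nucleus RNA counts. A barcode was kept where 300 or more genes were detected and mitochondrial genes took no more than 5% of its UMIs. It was called S3 where the summed UMIs of Cyp7b1, Slc22a19, Bcat1 and Mpped1 were at least 4 and at least 2 times the summed UMIs of 4 genes of the S1 segment (Slc5a12, Slc5a2, Gldc and Prodh2) and of 4 genes of the S2 segment (Slc22a8, Slco1a1, Cyp2e1 and Cndp1). It also had no UMI of Havcr1, Top2a, Nphs1, Flt1 or Slc12a3 and at most 1 UMI of Slc12a1, genes of injured tubule, dividing cells, podocytes, endothelium, distal tubule and thick ascending limb. The rule found 2788 S3 nuclei among 61939 kept nuclei, or 4.50%. S1 and S2 nuclei, chosen in the same way with their own 4 genes, numbered 4648 and 4396.

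The study compared 3 control libraries of mouse kidney cortex (Klf4 fl/fl) with 3 knockout libraries (Podocin-Cre Klf4 fl/fl), all of the FVB/N strain. By these genotype labels both groups carry the floxed Klf4 alleles and differ by the Cre. Whether the groups also differ in litter or in other stretches of the genome was not tested. The Podocin promoter drives the Cre in podocytes, the filtering cells of the glomerulus. S3 nuclei are therefore not cells in which that promoter is known to be active. Klf4 was near the detection limit in them, at 0 to 5.05 CPM (the usual depth-scaled unit, a gene's UMIs summed over the S3 nuclei of a library and scaled to all UMIs of those nuclei), so S3 counts give no check of the deletion. The labels give neither age nor sex, and do not say whether replicates are separate animals, so p-values measure the spread between these 6 libraries.

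The proximal tubule takes back most of what the glomerulus filters, and its segments divide this work. S1 and S2 carry the bulk of glucose, phosphate and bicarbonate uptake at high capacity. S3 recovers what is left with transporters of higher affinity and handles organic anions and steroids. It also burns fatty acids in its mitochondria and peroxisomes. Because S3 runs into the outer medulla, where oxygen is low, it is a segment known for its sensitivity to injury. Of the genes that chose the nuclei, Cyp7b1 encodes an oxysterol hydroxylase, Slc22a19 an organic anion transporter, Bcat1 a branched-chain amino acid transaminase and Mpped1 a putative metallophosphoesterase.

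Controls 1, 2 and 3 gave 937, 67 and 68 S3 nuclei, and knockouts 1, 2 and 3 gave 898, 376 and 442. The median S3 nucleus of controls 1, 2 and 3 held 2256, 1434 and 2805 UMIs, and that of knockouts 1, 2 and 3 held 1812, 1525 and 1900.5 UMIs, a difference of -419 in the means (two-sided exact permutation test, p = 0.5). Summed UMIs of S3 nuclei ran from 113937 in control 2 to 2413938 in control 1, so values in controls 2 and 3 rest on far fewer molecules. Control 1 and knockout 1 stood apart from the other 4 libraries, with 19645 and 22069 kept nuclei against 3845 to 6064, and with a mitochondrial share of S3 UMIs of 2.09% and 0.918% against 0.104 to 0.225%. Values within the pair numbered 1, or without libraries numbered 1, are therefore given beside the main results on genotype. S3 nuclei of different libraries shared at most 1 barcode sequence between any pair of libraries.

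The 4 genes that chose the nuclei were not evenly present. Cyp7b1 had a UMI in 96.5% of S3 nuclei, Bcat1 in 66.9%, Slc22a19 in 49.3% and Mpped1 in 30.4%, and Cyp7b1 alone made up 72.0% of the summed UMIs of the 4. All 4 genes were seen together in 9.90% of S3 nuclei, and only 1 of them in 13.4%. Slc22a19 had a UMI in 75.8% of the S3 nuclei of knockout 3 and in 29.9 to 48.7% of those of the other libraries. At the lower limit of the rule, 276 S3 nuclei had a sum of 4, and 264 nuclei that met the other conditions had a sum of 3. The exclusion genes mattered more: of 4922 nuclei that met the sum and the ratio, 2134 (43.4%) were removed, 1163 of them with a UMI of Slc12a3 and 887 with 2 or more of Slc12a1. By library, the removed share ran from 27.3% in knockout 2 to 49.9% in control 1. These values describe the choice of nuclei, and no test was made on them.

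Markers of other kidney cells were low in S3 nuclei, as read from summed CPM over each marker list. The 8 podocyte markers together were at 65.6 to 96.5 CPM in the controls and 38.6 to 85.1 CPM in the knockouts. The 7 thick ascending limb markers were at 747 to 1162 CPM in the controls and 620 to 878 CPM in the knockouts, and the 6 distal and connecting tubule markers at 434 to 1132 CPM and 535 to 862 CPM. The 9 collecting duct markers (65.6 to 168 CPM in controls, 79.0 to 143 CPM in knockouts), the 7 endothelial markers (25.2 to 105 CPM, 44.5 to 86.6 CPM) and the 9 mesangial, mural and fibroblast markers (8.78 to 34.4 CPM, 18.6 to 45.1 CPM) were lower still. Thin limb markers, 8 in number, were at 114 to 257 CPM and 98.4 to 147 CPM. Parietal epithelial markers, 6 in number, were at 529 to 817 CPM and 594 to 984 CPM, most of it Pax8, which tubule cells also express. Ranges of the 2 genotypes overlapped for each of these lists. Itgam was the only marker at 0 in all libraries.

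The question of how many nuclei belong to S3 was asked first. Of all kept nuclei, those of S3 made up 4.77%, 1.74% and 1.30% for controls 1, 2 and 3 against 4.07%, 7.40% and 7.29% for knockouts 1, 2 and 3. The group means were 2.60% ± 1.89 (SD, n = 3) and 6.25% ± 1.89 (SD, n = 3), and the groups overlapped (difference 3.65 percentage points, two-sided exact permutation test, p = 0.2). Against proximal tubule nuclei alone the order was different. As a share of S1, S2 and S3 nuclei together, S3 made up 20.4%, 21.2% and 6.81% for the controls against 22.1%, 38.1% and 50.2% for the knockouts. All 3 knockout libraries lay above all 3 controls, with means of 36.8% ± 14.1 (SD, n = 3) and 16.2% ± 8.10 (SD, n = 3). The difference of 20.6 percentage points had p = 0.1 by the two-sided exact permutation test, the smallest value that 3 against 3 libraries allow, so this design cannot reach 0.05. In the pair numbered 1 the difference was 1.64 percentage points, and in the libraries numbered 2 and 3 it was 30.1. In nuclei thinned to 1000 UMIs each, to bring the libraries to 1 depth, the shares came to 29.3%, 21.6% and 11.3% for the controls against 30.0%, 46.6% and 73.7% for the knockouts. Thinning dropped nuclei under 1000 UMIs, and the rule was applied again to the thinned counts. In every library S2 lost a larger part of its nuclei than S3. In control 1, S2 went from 2146 to 771 and S3 from 937 to 835, and in knockout 3 from 182 to 39 and from 442 to 375. Controls 2 and 3 kept 35 and 40 S3 nuclei. The thinned shares thus also reflect this loss of S2 nuclei. How deep each cortex piece was cut is not given in the labels, and its part in the S3 shares was not tested.

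**Figure D1:**
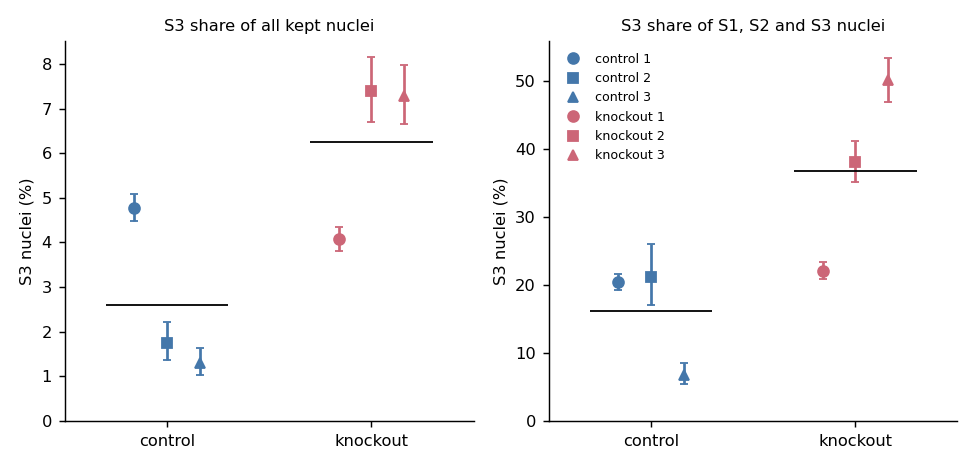
Share of S3 nuclei (%) in each library, of all kept nuclei at left and of S1, S2 and S3 nuclei at right. Points are libraries with 95% Wilson intervals, which cover counting error only, and black lines are group means. At right the 3 knockout libraries (22.1 to 50.2%) lie above the 3 controls (6.81 to 21.2%), with control 1, control 2 and knockout 1 close together.

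S3 nuclei were next set against S1 and S2 nuclei of the same libraries to show what distinguishes the chosen nuclei in genes that the rule did not use. The nuclei of all 3 segments were chosen for their segment, so the differences are a description of the chosen nuclei and not a test of them. Of 7993 genes, 2545 (31.8%) differed between S3 and S1, and 1283 were higher (16.1%) and 1262 lower (15.8%) in S3 than in S1 at an adjusted p of 0.05 (edgeR quasi-likelihood test with library as a block, Benjamini-Hochberg adjustment). Of 8171 genes, 1914 (23.4%) differed between S3 and S2, and 957 were higher (11.7%) and 957 lower (11.7%) in S3 than in S2. The lists shared 730 higher genes, which were 56.9% of those higher than in S1 and 76.3% of those higher than in S2, and 57 genes were at least 4-fold higher than in both.

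Of 22 listed genes of sterol and bile acid metabolism, 13 were measured against S1, with 5 past the threshold as higher and 4 as lower, and 15 against S2, with 7 and 4, so the list had no common direction. Of 31 measured genes of fatty acid oxidation and the peroxisome, 8 passed as higher and 10 as lower against S1 (median -0.18). Against S2 it was 6 and 9 (median -0.15). Of 17 measured organic ion transporters of the SLC22 and SLCO families, 10 passed as higher and 5 as lower against S1 (median 0.69). Against S2 it was 5 and 5 of 17 (median 0.08), with no common direction. Over all genes, 16.1% were higher and 15.8% lower than in S1, and 11.7% each way against S2. The genes named for having the smallest p included Gramd1b, Akr1d1 and Slco4c1. Gramd1b, which carries cholesterol from the plasma membrane to the endoplasmic reticulum, was at 8162 ± 1229 CPM in S3 (SD, n = 6), 1220 ± 301 CPM in S1 and 980 ± 194 CPM in S2. Akr1d1, a reductase of bile acid and steroid hormone metabolism, was at 195 ± 41.5 CPM in S3, 20.3 ± 6.39 CPM in S1 and 18.7 ± 10.4 CPM in S2. Slco4c1, a basolateral organic anion transporter, was at 104 ± 45.0 CPM in S3 against 7.16 ± 6.70 CPM and 4.71 ± 3.87 CPM. Each of these genes was higher in S3 in 6 of 6 libraries.

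Runx1t1, a transcriptional corepressor, was 4.24 ± 0.22 (SE) higher on the log2 scale in S3 than in S1 and 4.34 ± 0.19 higher than in S2. Wasf3, which promotes actin branching, was 4.25 ± 0.23 and 4.40 ± 0.20 higher. Rnf24, a RING finger protein, was 3.62 ± 0.13 and 2.44 ± 0.08 higher, and C8a, a subunit of the complement membrane attack complex, 3.13 ± 0.13 and 1.62 ± 0.10 higher. Kif20b, Mro, Gpm6a and Wdr17 were 2.28 to 3.28 higher than in S1 and 1.82 to 2.17 higher than in S2. Among the genes with low levels in S3, Slc9a3, the apical sodium-proton exchanger, was at 94.9 ± 13.4 CPM against 372 ± 59.3 CPM in S1 and 369 ± 87.6 CPM in S2. Slc34a1, the main phosphate transporter of the tubule, was at 1875 ± 425 CPM against 5271 ± 885 CPM and 5247 ± 1038 CPM. The amino acid transporters Slc7a8 and Slc6a19 differed from S1 by -3.08 ± 0.15 and -2.22 ± 0.11 on the log2 scale, and from S2 by -0.72 ± 0.13 and -0.57 ± 0.12.

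A list of 20 genes known for S3, none of them in the rule, had 15 members measured against S1, of which 12 passed the threshold as higher and 2 as lower, beside 16.1% and 15.8% of all genes. Of 16 measured against S2, 9 passed as higher and 2 as lower, beside 11.7% of all genes each way. The median difference of the list was 1.07 on the log2 scale against S1 and 0.45 against S2, while the median over all genes was 0.01 in both comparisons. Slc7a13, an acidic amino acid transporter, and its partner Slc3a1, the heavy subunit of cystine transport, were both high. Slc7a13 was at 1312 ± 325 CPM in S3, 220 ± 131 CPM in S1 and 543 ± 248 CPM in S2, and Slc3a1 at 582 ± 133 CPM, 271 ± 46.5 CPM and 299 ± 85.9 CPM. Slc22a7, an organic anion transporter, Slc6a18, a neutral amino acid transporter, and Slc5a8, a monocarboxylate transporter, were 2.74 ± 0.27, 2.52 ± 0.12 and 1.92 ± 0.13 higher than in S1. Kynu, an enzyme of tryptophan breakdown, went the other way, at 23.7 ± 18.9 CPM against 105 ± 54.7 CPM in S1, and so did Aadac, a lipid deacetylase. Most measured members of the list thus lay in the direction that the label S3 gives them. The exceptions were Kynu, Aadac and Gas2 in both comparisons, and Acy3 against S2 at -0.07 ± 0.09.

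Csf1r, the receptor of the macrophage growth factors Csf1 and Il34, made up most of the summed CPM of the 9 immune markers in each library other than knockout 1, where it was 58.4 of 124 CPM. It was at 99.4, 61.4 and 121 CPM in S3 nuclei of controls 1, 2 and 3 and at 58.4, 83.8 and 72.1 CPM in those of the knockouts. In S1 nuclei it was at 4.21 to 13.8 CPM, and in S2 nuclei at 0 to 19.5 CPM. All 9 immune markers together were at 79.0 to 141 CPM in S3 nuclei of the controls and 88.9 to 124 CPM in those of the knockouts.

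**Figure D2:**
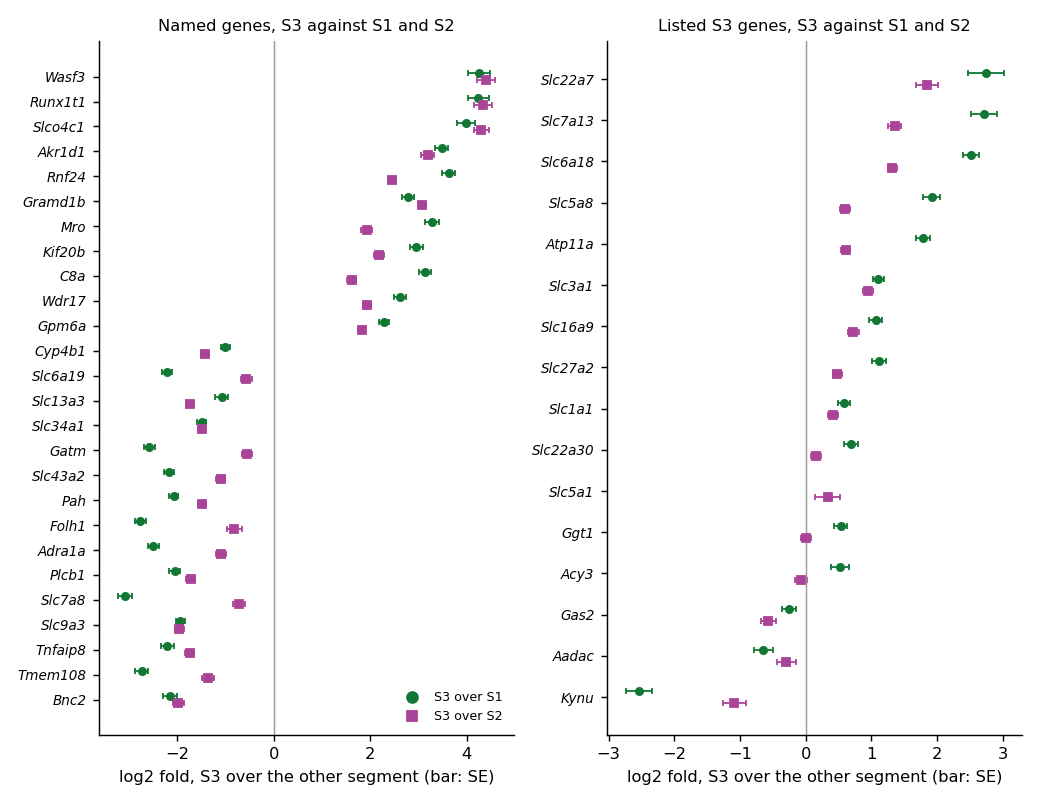
Log2 fold of S3 over S1 (green circles) and over S2 (purple squares), with the SE as bars, for the named genes at left and the listed S3 genes at right. Wasf3, Runx1t1 and Slco4c1 are above both segments by about the same amount, whereas Slc7a8 and Slc6a19 are far below S1 and only little below S2.

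Slc3a1 is shown with its promoter because it was the only one of the named and listed segment genes found in the RefSeq promoter table whose window held the letters CAAAGTCCA, a site type bound by HNF4, the factor family that maintains proximal tubule identity. The table had windows for 34 of the 46 genes, and both strands were searched. The letters occurred in 0.475% of all 32851 windows of the same length, so this match is a description and not a binding site. The window, on GRCm38.p6 at chr17:85028097-85028396 on the plus strand, is given 5′ to 3′ with the match in capitals.
Slc3a1: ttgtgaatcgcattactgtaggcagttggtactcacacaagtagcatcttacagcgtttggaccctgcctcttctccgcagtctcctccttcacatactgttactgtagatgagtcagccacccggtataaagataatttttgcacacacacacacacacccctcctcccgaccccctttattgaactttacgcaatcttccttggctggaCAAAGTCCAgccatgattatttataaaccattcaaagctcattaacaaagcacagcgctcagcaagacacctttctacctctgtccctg

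The main comparison asked which genes differ in S3 nuclei between knockout and control libraries. Of 8375 genes tested, 3 passed an adjusted p of 0.05, or 0.0358% (edgeR quasi-likelihood test, Benjamini-Hochberg adjustment). Slc6a15 and the long noncoding RNA Gm45083 rose (0.0239%), and Glt1d1 fell (0.0119%). At an unadjusted p below 0.05 there were 662 genes. With the replicate number as a block, 49 genes passed, or 0.585%, among them these 3, with 21 higher (0.251%) and 28 lower (0.334%). Pairing by number rests on these data and not on the labels. Without both libraries numbered 1, 15 of 6504 genes passed (0.231%), 5 of them higher (0.0769%) and 10 lower (0.154%), and 2 of the 3 genes were among them.

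Slc6a15, a transporter of branched-chain and other neutral amino acids (chr10:103367783-103419377), was at 370, 360 and 333 CPM in S3 nuclei of controls 1, 2 and 3 and at 993, 1297 and 1427 CPM in those of knockouts 1, 2 and 3. Every knockout library was more than 2 times every control. The change was 1.79 ± 0.22 (SE) on the log2 scale, with an adjusted p of 0.0318 by edgeR. It was 1.43 in the pair numbered 1 and 1.97 in the libraries numbered 2 and 3. Slc6a15 was itself an S3 gene, 2.46 ± 0.14 higher on the log2 scale in S3 than in S1 and 1.93 ± 0.10 higher than in S2.

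Glt1d1, which encodes a protein with a glycosyltransferase domain (chr5:127632262-127709374), was at 289, 246 and 338 CPM in the controls and at 68.7, 61.2 and 31.6 CPM in the knockouts. The lowest control was above 3 times the highest knockout. The change was -2.44 ± 0.30 (SE) on the log2 scale, with an adjusted p of 0.0318 by edgeR, and -2.07 and -2.65 in the pair numbered 1 and in the libraries numbered 2 and 3. Glt1d1 was lower in the knockouts in S1 and S2 nuclei too, without overlap of the groups. Its mean went from 120 to 7.93 CPM in S1 and from 233 to 21.6 CPM in S2. The log2 ratio of means was -3.92 in S1, -3.43 in S2 and -2.43 in S3, so the fall was not particular to S3. Gm45083 (chr6:117578715-117612570), chosen for the text after its values were seen, had 2 UMIs over the 3 control libraries and 92 over the 3 knockouts. Its level was 33.8 times higher in the knockouts, with a 95% counting interval of 9.08 to 283. That interval covers counting error of UMIs pooled over libraries and not the spread between libraries. Over all genes, pooled control UMIs came mostly from control 1, with 2413938 against 113937 in control 2 and 198191 in control 3.

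Leaving out control 1, control 2, control 3, knockout 2 or knockout 3 left no gene past the threshold by edgeR, with 557, 787, 657, 409 and 434 genes at an unadjusted p below 0.05, and leaving out knockout 1 gave 39, with the 3 genes among them. Over all alternatives run, the difference ran from 1.70 to 1.98 for Slc6a15 and from -2.71 to -2.16 for Glt1d1, with an adjusted p of up to 0.273 by edgeR.

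Several other named genes had separated groups but did not pass without the block. Rhobtb1, an atypical small GTPase, was at 135, 176 and 177 CPM in the controls and 366, 452 and 457 CPM in the knockouts. Its difference was 1.42 ± 0.21 on the log2 scale (adjusted p = 0.0584 by edgeR, 0.0123 with the block). Rnf180, a ubiquitin ligase, was at 63.8, 61.4 and 45.4 CPM in the controls and 138, 198 and 179 CPM in the knockouts (adjusted p = 0.0902 by edgeR, 0.0270 with the block). In these genes no knockout library reached down to the controls.

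Cftr, the chloride channel of cystic fibrosis, was at 6.63, 17.6 and 5.05 CPM in the controls and 40.0, 47.9 and 34.6 CPM in the knockouts (adjusted p = 0.0902 by edgeR, 0.0266 with the block). C4b, complement component C4, had 8 UMIs over the controls, all in control 1, and 100 over the knockouts. The ratio of its levels over pooled UMIs was 9.17, with a 95% counting interval of 4.48 to 21.8 that leaves out the spread between libraries. Both genes were thus rare in control S3 nuclei and present in each knockout library.

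Among lower genes, Alpk1, a kinase that senses bacterial sugars (chr3:127670310-127780527), was at 75.4, 52.7 and 50.5 CPM in the controls and 16.4, 12.0 and 16.8 CPM in the knockouts (adjusted p = 0.0584 by edgeR, 0.0173 with the block). Lama3, a laminin chain, was at 73.7, 105 and 55.5 CPM against 20.0, 21.3 and 10.9 CPM (adjusted p = 0.0863 by edgeR, 0.0115 with the block). Rdh16f2, of a retinol dehydrogenase family, was at 256, 263 and 207 CPM against 75.9, 17.3 and 31.6 CPM (adjusted p = 0.0902 by edgeR, 0.00831 with the block). The groups did not overlap for any of these genes. Over all genes tested, 7.10% had all knockout libraries above the controls and 5.98% had them all below.

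Zfp68, a zinc finger gene (chr5:138603652-138619761), had 43 UMIs over the control libraries, at 14.5, 17.6 and 30.3 CPM, and none in the knockouts. Its level was at least 19.5-fold lower in the knockouts, taking 3 UMIs over the group as the floor. A430033K04Rik (chr5:138622859-138652414), named after its values were seen, had 40 UMIs against 0 and was at least 18.2-fold lower. It is the neighbour of Zfp68, with 3097 bases between the genes, and both had an adjusted p of 0.078 to 0.0902 by edgeR and of 0.0186 to 0.0203 with the block.

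**Figure D3:**
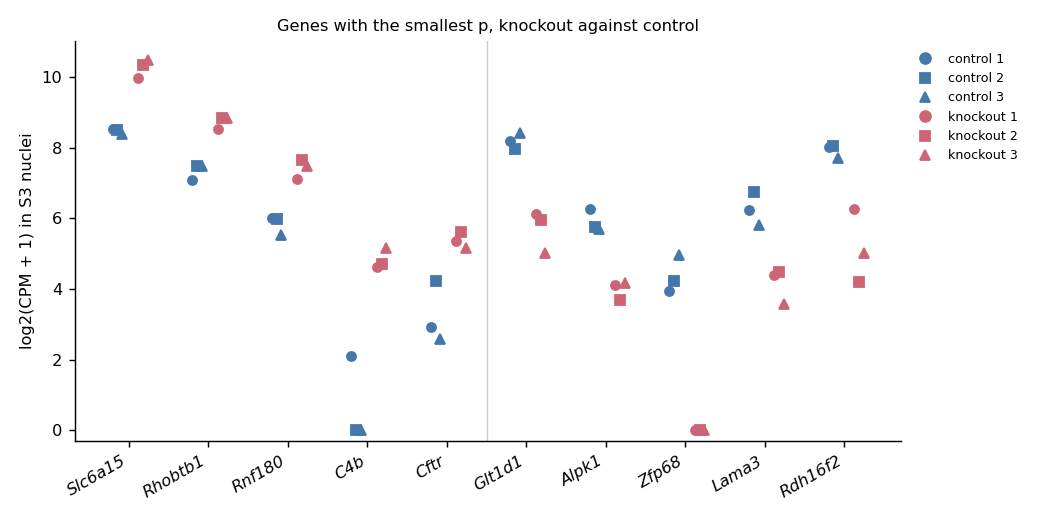
Level in S3 nuclei, as log2(CPM + 1), of the 10 genes named for the knockout comparison, with each point a library. The knockout libraries lie above the controls in the 5 genes at left and below them in the 5 at right, and Zfp68 is at 0 in all 3 knockouts.

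Further genes passed the threshold with the replicate block, whose pairs were taken from these data, and not without it. Among those that were higher, Il34, a ligand of Csf1r, was at 86.2, 87.8 and 131 CPM in the controls and 223, 265 and 477 CPM in the knockouts, a difference of 1.56 ± 0.21 on the log2 scale with the block (adjusted p = 0.0115, and 0.153 without it, edgeR). Ccl28, a chemokine of epithelia, was at 97.8, 96.5 and 182 CPM against 220, 322 and 344 CPM. Kcnip4, a potassium channel partner, was at 18.6, 35.1 and 10.1 CPM against 119, 109 and 44.5 CPM. Samd4, Sytl2, Gpc5, Dock10, Auts2, Slc13a1 and Fkbp5 were higher as well, by 1.05 to 2.65 on the log2 scale.

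Among those that were lower, Mme, the brush border peptidase neprilysin, was at 135, 87.8 and 116 CPM in the controls and 49.7, 33.3 and 21.7 CPM in the knockouts, -1.71 ± 0.27 on the log2 scale (adjusted p = 0.0186 with the block, 0.125 without it, edgeR). Cxcl12, a chemokine, was at 208, 167 and 167 CPM against 85.6, 67.8 and 51.4 CPM. Acy1, an aminoacylase, was at 256, 246 and 389 CPM against 108, 116 and 136 CPM. The groups did not overlap in these 3 genes.

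Aqp4, a water channel, and Dnase1, a secreted nuclease, were highest in control 1, at 121 and 111 CPM against 25.2 to 52.7 CPM in controls 2 and 3, and were at 4.94 to 31.3 CPM in the knockouts. The mitochondrial share of UMIs in S3 nuclei was also highest in control 1, and its part in these values was not tested. Slc25a5, Ttc36 and Cyp2a4, at -1.89 to -1.39 on the log2 scale with the block, had the same excess in control 1, at 258, 485 and 149 CPM against at most 35.3, 167 and 70.6 CPM in controls 2 and 3. Without control 1, the value of Slc25a5 turned to 0.24.

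Metabolic lists had no member past the threshold without the block, and are given by their counts and medians. Of 31 tested genes of fatty acid oxidation and the peroxisome, 22 were lower and 9 higher, with a median of -0.44 on the log2 scale against -0.01 over all genes tested. Without control 1, 17 were lower and 14 higher, with a median of -0.27. Of 8 tested genes of gluconeogenesis, which the proximal tubule carries out in fasting, 7 were lower, with a median of -0.41. Of 19 tested genes of branched-chain amino acid breakdown, 17 were lower, with a median of -0.29, and without control 1 it was 12 of 19. Over the alternatives run, the medians of these 3 lists stayed negative, between -0.51 and -0.27, -0.49 and -0.33, and -0.52 and -0.19. Of 12 tested genes of glycolysis and hypoxia, 9 were lower, with a median of -0.68 that was -0.06 without control 1 and -0.17 without both libraries numbered 1. Of 16 tested genes of sterol and bile acid metabolism, 10 were higher and 6 lower, with a median of 0.12 that was -0.03 with the block.

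Acaa1b, a peroxisomal thiolase, was at 115, 334 and 202 CPM in the controls and 55.4, 42.6 and 63.2 CPM in the knockouts. It had a difference of -1.87 ± 0.35 (adjusted p = 0.125 by edgeR, 0.0221 with the block). Its groups did not overlap.

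Pck1, the rate-limiting enzyme of gluconeogenesis, was at 839, 1518 and 1393 CPM in the controls and 721, 654 and 426 CPM in the knockouts. Its log2 difference was -0.22 in the pair numbered 1 and -1.43 in the libraries numbered 2 and 3 (adjusted p = 0.313 by edgeR, 0.130 with the block). Aldh6a1, of valine breakdown, was at 275, 219 and 247 CPM against 189, 130 and 110 CPM (adjusted p = 0.399 by edgeR). Cat, the peroxisomal catalase, differed by -0.77 ± 0.21 on the log2 scale (adjusted p = 0.335 by edgeR), with -0.94 in the pair numbered 1 and -0.59 in the libraries numbered 2 and 3. In all 3 the knockout libraries lay below the controls without passing the test.

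Transport and identity genes were nearly evenly divided with all libraries included. Of 20 genes shared by the whole proximal tubule, 9 were higher and 11 lower, with a median of -0.06, and of 16 genes for endocytosis of filtered protein 8 were higher and 8 lower, with a median of 0.02. Without control 1 both lists leaned higher, with 13 higher and 7 lower (median 0.16) and 13 higher and 3 lower (median 0.33). Dab2, the adaptor of the megalin receptor, was at 985, 1141 and 1453 CPM in the controls and 1989, 2219 and 2555 CPM in the knockouts, 0.92 ± 0.22 on the log2 scale (adjusted p = 0.293 by edgeR). Of the S3 genes outside the rule, 6 were higher and 11 lower, with a median of -0.36, which was 0.04 when all genes were tested with no low-count filter. Slc16a9, a carnitine and monocarboxylate transporter, was at 804, 1097 and 827 CPM against 415, 613 and 299 CPM (adjusted p = 0.313 by edgeR, 0.0418 with the block), whereas Slc22a30, an organic anion transporter, was at 1051, 676 and 1055 CPM against 1628, 1705 and 1616 CPM (adjusted p = 0.349 by edgeR). The S3 list thus held members with opposite differences.

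Genes of the circadian clock and of hormone response had no member past the threshold without the block. Of 13 tested clock genes, 5 were higher and 8 lower. Npas2, a clock activator, was at 11.2, 8.78 and 10.1 CPM in the controls and 29.7, 37.2 and 30.6 CPM in the knockouts (adjusted p = 0.291 by edgeR, 0.146 with the block). Dbp, an output gene of the clock, was at 78.7, 17.6 and 65.6 CPM against 25.6, 9.31 and 9.88 CPM (adjusted p = 0.294 by edgeR, 0.0414 with the block), and its groups overlapped. Summed S3 UMIs were 113937 in control 2 and 198191 in control 3. Npas2 values there, and Dbp in control 2, rest on very few UMIs. Fkbp5, which glucocorticoids induce, differed by 1.26 ± 0.46 on the log2 scale without the block and by 1.05 ± 0.20 with it (adjusted p = 0.510 and 0.0425, edgeR). It was lowest in the library numbered 1 of each group, at 77.1 CPM in control 1 and 145 CPM in knockout 1, and its groups overlapped.

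Injury and defence lists were sparse in S3 nuclei, from which the rule had already removed any nucleus with the injury marker Havcr1. Of 28 genes of tubule injury and repair only 8 were tested, 4 higher and 4 lower, with a median of 0.07. Without control 1 it was 8 higher and 1 lower (median 1.12), without both libraries numbered 1 it was 4 and 3 (median 0.58), and with no low-count filter 20 and 7 (median 0.70). Of the 8 tested, 5 had an unadjusted p below 0.05 by edgeR, beside 662 of 8375 genes. All knockout libraries lay above the controls in 2 of the 8 and below them in 1, beside 7.10% and 5.98% of all genes. Il34, the member with the smallest p, was higher, with the values given above. Plin2, which coats lipid droplets, was at 59.2, 26.3 and 30.3 CPM in the controls and 20.0, 18.6 and 11.9 CPM in the knockouts (adjusted p = 0.313 by edgeR). Of 24 interferon and antigen presentation genes 7 were tested and 5 were lower, with a median of -0.08, while 6 of 7 were higher without control 1 (median 0.49) and 5 of 7 at no more than 1% mitochondrial UMIs (median 0.41). That limit left only 19 of the 937 S3 nuclei of control 1. Of 22 NRF2 and glutathione genes 17 were tested and 12 were lower, with a median of -0.40 that turned to 0.17 without control 1.

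**Figure D4:**
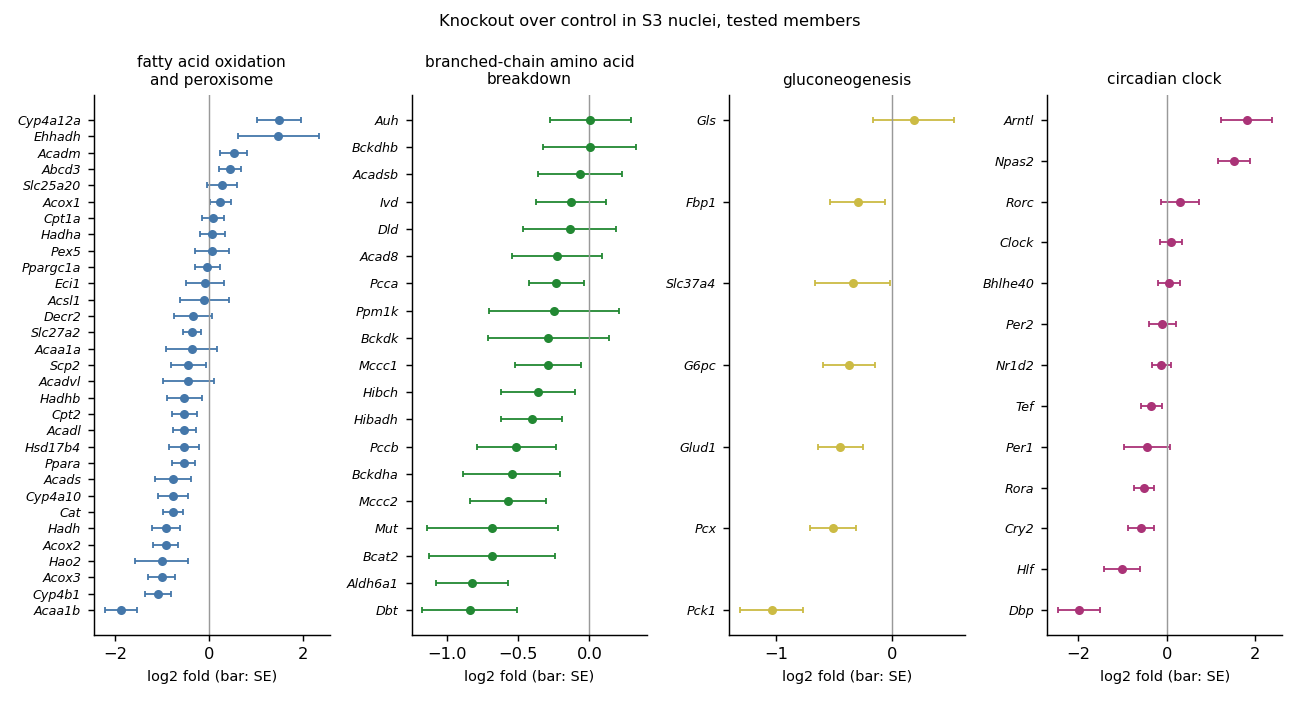
Log2 fold of knockout over control in S3 nuclei with the SE as bars, for the tested members of 4 gene lists, with 1 gluconeogenesis gene not drawn. Most tested members of the 3 metabolic lists were below 0 (22 of 31, 17 of 19 and 7 of 8), and no member passed the threshold without the replicate block.

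Whether the knockout difference depended on the segment was tested directly, as the interaction of genotype with S3 against S1 and with S3 against S2. Of 9089 genes, 2 passed against S1 (0.022%), 1 with a higher (0.011%) and 1 with a lower difference in S3 (0.011%), by edgeR at an adjusted p of 0.05. Of 9235 genes, 12 passed against S2 (0.13%), 5 with a higher (0.0541%) and 7 with a lower difference in S3 (0.0758%). Alpk1 and Auts2 passed both. Without both libraries numbered 1, no gene passed against S1 by edgeR, with 379 at an unadjusted p below 0.05, and 6 passed against S2, of which 3 were among the 12. Slc6a15 passed neither (adjusted p = 0.438 and 1.00 by edgeR), and its CPM in the knockouts was above the controls in S1 and S2 as well, at 183, 141 and 234 CPM against 88.4, 96.6 and 80.0 CPM in S1.

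Alpk1 in controls was an S3 gene. It was at 5.61 to 11.5 CPM in S1 nuclei and 0 to 5.63 CPM in S2 nuclei of the controls, against 50.5 to 75.4 CPM in S3. In the knockouts it was at 9.58 to 15.3 CPM in S1, 3.68 to 10.5 CPM in S2 and 12.0 to 16.8 CPM in S3, so its S3 level came down to near that of S1. The interaction was -2.94 ± 0.40 against S1 (adjusted p = 0.00328 by edgeR) and -2.84 ± 0.48 against S2 (adjusted p = 0.00235). Without control 1 neither was past the threshold (adjusted p = 0.955 and 0.509, edgeR), nor was either without knockout 1.

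Auts2, a regulator of transcription known from neurons (chr5:131437333-132543344), was at 260, 360 and 303 CPM in S3 nuclei of the controls and 634, 753 and 602 CPM in those of the knockouts. In S2 nuclei it was at 237 to 310 CPM and 182 to 300 CPM, and in S1 nuclei at 773 to 1263 CPM and 759 to 1146 CPM, both with overlapping groups. The interaction was 1.47 ± 0.23 against S1 (adjusted p = 0.0115 by edgeR) and 1.29 ± 0.17 against S2 (adjusted p = 5.29e-05). The interaction against S1 was not past the threshold without control 1 (adjusted p = 0.619 by edgeR) or without knockout 2 (0.0776).

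Slc13a1, the sulfate transporter of the proximal tubule, was at 267, 334 and 409 CPM in S3 nuclei of the controls and 713, 681 and 787 CPM in those of the knockouts. Its level in S1 was far higher, at 1429 to 2739 CPM in the controls and 2096 to 2783 CPM in the knockouts. The interaction against S2 was 0.76 ± 0.15 (adjusted p = 0.0187 by edgeR). It was past the threshold in 8 of 14 alternatives, and not without control 1 (adjusted p = 0.892 by edgeR), control 3 or knockout 1. Fgf1, a growth factor, was 2.11 ± 0.13 higher on the log2 scale in S3 than in S1. In S3 nuclei it was at 1977, 2282 and 2185 CPM in the controls and 1493, 1452 and 1705 CPM in the knockouts, while in S2 it was at 399 to 499 CPM against 535 to 687 CPM. Its groups were thus separated in opposite directions in S3 and S2, with an interaction of -0.87 ± 0.14 (adjusted p = 0.00147 by edgeR) that passed in all 14 alternatives.

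**Figure D5:**
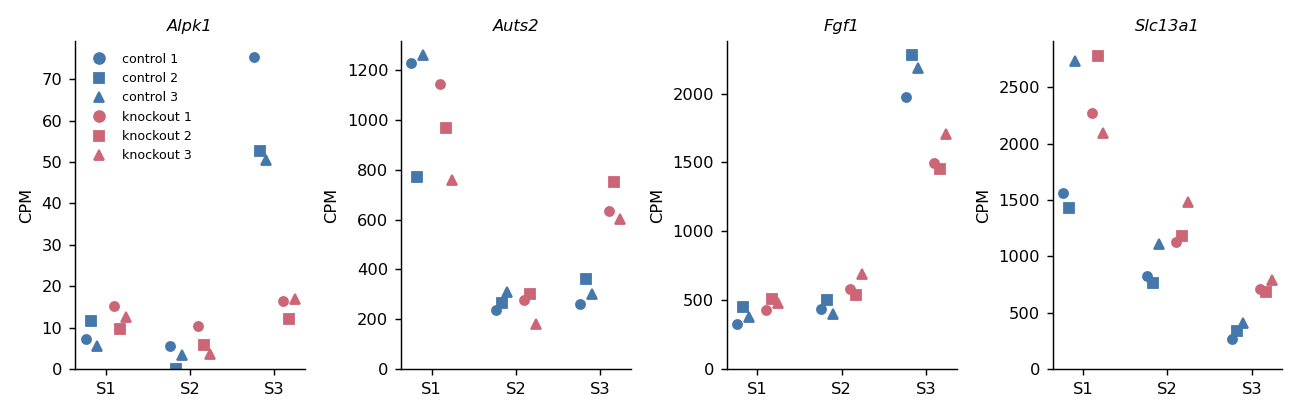
CPM of 4 genes past the interaction test in S1, S2 and S3 nuclei, with each point a library. Alpk1 is at 50.5 to 75.4 CPM in control S3 nuclei and at 16.8 CPM or less in the other groups, Auts2 and Slc13a1 are higher in knockout than control S3 nuclei, and Fgf1 is lower in knockout S3 nuclei and higher in knockout S2 nuclei.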

How the data were processed

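The authors deposited raw UMI counts per gene and barcode, which name Cell Ranger 3.1.0 in their file headers. Build mm10 and Seurat, with no role given, come from the submitters' processing notes. Aligner settings, annotation release and cell calling are not given in the sources used here. Gene positions come from the GRCm38 annotation.

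The S3, S1 and S2 nuclei, the gene lists and the tests were chosen with earlier results of these data known. Counts were summed per library and segment and tested in edgeR 4.0.16 by the quasi-likelihood method, after TMM scaling and filterByExpr, at a Benjamini-Hochberg threshold of 0.05. The 18 genes of the rule stayed in the fits and were left out of counts. Segment and interaction fits had library as a block. CPM is given as mean ± SD over libraries. Shares were compared by an exact permutation test over 20 assignments.

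The text names up to 15 genes per direction past the threshold with the smallest p, or 5 where fewer than 6 pass. It also names 8 per direction for each segment contrast, 6 per interaction, and from each list at most 4 called members or, where none was called, the 2 of lowest p. Clone, mitochondrial and ribosomal names were left out, and genes named with the block follow the same rule applied to that fit. Genes shown as flagged by the interaction beyond 6 were chosen after their values were seen.

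Deviations from the group means correlated at 0.399, 0.112 and 0.120 for libraries with the same number, so the numbers were taken to pair the libraries on these data, although the labels name no shared litter or day. Control 3 and knockout 2 correlated at 0.139.

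No doublets were removed from the members. Scrublet (scanpy 1.11.5) served as an alternative at 0.8% of barcodes per 1000. Alternatives covered the marker sum, ratio, mitochondrial limit, depth, scaling, filter, DESeq2 1.42.0, the block and each library left out. The fits were tested on simulated data. Values of 1 listed gene are not reported here.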

Additional observations from a re-analysis of the deposited data

Results flagged for a closer look

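The difference between knockout and control was itself different between S3 and another segment in 14 tests, each past an adjusted p of 0.05 for the interaction by edgeR. Values are log2 differences, S3 minus the other segment. Against S1 they were Alpk1 at -2.94 and Auts2 at 1.47.

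Against S2, Auts2 (1.29), Arrdc3 (1.58), Slc13a1 (0.76), Col27a1 (0.84) and Glt1d1 (1.11) had a positive interaction. Arrdc3, an arrestin-related adaptor, was at 92.8 ± 35.3 CPM in S2 nuclei of the controls and 43.4 ± 5.18 CPM in those of the knockouts (SD, n = 3), against 47.8 ± 16.0 CPM and 76.1 ± 12.9 CPM in S3. Col27a1, a fibrillar collagen chain, was at 626 ± 273 CPM and 429 ± 101 CPM in S2 and at 210 ± 131 CPM and 212 ± 48.9 CPM in S3. Glt1d1 was lower in the knockouts in both segments, from 233 ± 17.2 to 21.6 ± 4.44 CPM in S2 and from 291 ± 46.2 to 53.8 ± 19.6 CPM in S3, so its positive interaction is a smaller fold in S3. Slc13a1, Col27a1 and Glt1d1 each passed in 8 of 14 alternatives, with an adjusted p of up to 0.892, 0.902 and 0.928 by edgeR, Arrdc3 passed in 12 and Auts2 in 14.

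Chrm3 (-1.21), Fgf1 (-0.87), Alpk1 (-2.84), Dcdc2a (-1.54), Nxpe3 (-3.02), Ppm1e (-1.19) and Chsy3 (-2.68) had a negative interaction. Chrm3, a muscarinic receptor, was at 170 ± 7.91 CPM in S2 nuclei of the controls and 434 ± 106 CPM in those of the knockouts, against 616 ± 105 CPM and 611 ± 80.0 CPM in S3. Dcdc2a, a doublecortin family gene, was at 17.3 ± 3.33 and 57.9 ± 5.68 CPM in S2 and at 57.1 ± 29.2 and 86.0 ± 16.6 CPM in S3. Ppm1e, a phosphatase, was at 40.9 ± 9.31 and 72.7 ± 10.3 CPM in S2 and at 157 ± 30.1 and 159 ± 27.7 CPM in S3. In each of these 3 genes the fold between genotypes was larger in S2 than in S3. Chrm3 and Fgf1 passed in all 14 alternatives, Dcdc2a in 12 and Alpk1 and Ppm1e in 10, and Nxpe3 passed in 10 of 13 and Chsy3 in 7 of 11 that gave a value. Without control 1, Dcdc2a, Ppm1e, Alpk1, Nxpe3 and Chsy3 were not past the threshold. Nxpe3 and Chsy3 were at 20.2 CPM or less on average in every group and segment.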

How the results depend on the processing

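For knockout against control in S3 nuclei, 3 genes became 49 with the replicate block, 39 with DESeq2 (2 of the 3 shared), 233 with no low-count filter, 5 at a ratio of 4 and 15 without both libraries numbered 1 (2 shared), and leaving out 1 library gave 0 to 39. For S3 against S1 the count was 1443 without both libraries numbered 1, and 2004 to 2614 with 1 library left out. For S3 against S2 it was 1007, and 1315 to 2054. Interactions against S1 numbered 27 with no filter, 0 without both libraries numbered 1, and 0 to 8 with 1 library left out. Against S2 they numbered 28, 6 and 3 to 23, and 7 without very deep nuclei.

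The share difference with 1 library left out was 3.00 to 4.74 percentage points of all nuclei and 14.0 to 28.0 of S1, S2 and S3 nuclei, and the difference in median UMIs -785 to -99.2. Signs turned without control 1 for 4 genes, whose values with 1 library left out ran from -1.83 to 0.77 (Fth1), -1.86 to 0.12 (B2m), -0.74 to 0.16 (Ccnd1) and -3.58 to 0.24 (Slc25a5). Fth1 also turned without both libraries numbered 1 (0.11), and B2m at 1% mitochondrial UMIs (0.032), a limit that left 19 S3 nuclei in control 1. The 16 genes chosen by the naming rule in each segment contrast kept their direction and their side of the threshold, and listed S3 genes were not rerun. The cause of these changes was not tested. Depth limits controls 2 and 3 most.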
